A study of Mus musculus with 9 samples.

Results

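Pms1 and 4 relatives, Pms2, Mlh3, Msh3 and Msh6, are 5 of the 31052 genes in a table of nuclear RNA from mouse hippocampal pyramidal cells. They were taken by symbol as the MutL homologs (Pms1, Pms2, Mlh3) and MutS homologs (Msh3, Msh6) of DNA mismatch repair, and all 5 were in the table. Pms1 was picked because its place and silent libraries stood far apart in these same data, so its values are given as a description, with no test. The other 4 were picked by family. The study imaged cells in mice that were navigating, tagged nuclei with light by what the cells did, and made 5 libraries from place cells, active where the animal is at a given spot, and 4 from silent cells. All 9 carry the genotype label WT, the tissue label hippocampus and the cell type label hippocampal pyramidal cell, and no treatment, strain or age is given. Each title carries its own mouse number, but whether the libraries are separate animals and how many nuclei each holds is not stated, so p-values measure the spread between these libraries, which may in part be technical.

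Mismatch repair corrects bases that were wrongly paired and small loops that arise when a repeated sequence slips. MutS proteins find the fault: the complex with MSH6 binds single mispaired bases and very small loops, and the complex with MSH3 binds larger loops. MutL proteins are then recruited: the complex with PMS2 carries an endonuclease that nicks the strand to be removed, the complex with MLH3 has a like activity and serves in meiotic crossing over, and PMS1 lacks that endonuclease motif. Neurons do not divide, and in mouse models of Huntington's disease Msh3, Mlh3 and Pms1 are known for acting on the length of CAG repeats in brain cells.

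The table's values were converted back to whole reads and scaled to a common depth. A library held 14026035 to 22331091 reads, and levels are given as RPM, reads per 1000000 of scaled depth, on which a single read was worth 0.0445 to 0.0725. A filter on low values (deposited values, after scaling of the libraries, of 10 or more in 4 or more libraries) was passed by 15217 genes. The libraries were sparse: of these genes 3.52 to 13.9% had no reads in a given place library and 7.52 to 22.5% in a given silent library. The highest share was in silent replicate 1. Pyramidal cell markers were abundant in both groups. Their summed level over 9 genes was 1771 to 2729 RPM in place and 2339 to 2884 RPM in silent libraries. For Slc17a7, the vesicular glutamate transporter of these cells, the mean was 469 ± 126 RPM over place libraries (SD, n = 5) and 412 ± 76.3 RPM over silent ones (SD, n = 4).

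Pms1 was read in all 5 place libraries and almost absent from the silent ones. Its level was 20.0 RPM in place replicate 1, 4.69 in replicate 2, 18.9 in replicate 3, 5.45 in replicate 4 and 7.09 in replicate 5. These levels rest on 299, 84, 362, 119 and 133 reads. Silent replicates 1, 2 and 3 had 0 Pms1 reads, which allows up to 0.217, 0.152 and 0.182 RPM, and silent replicate 4 had 1 read, or 0.0445 RPM. The groups did not overlap, and within the place group replicates 1 and 3 stood apart from the other three, with 4.27 times between the highest and the lowest library. Pooled over libraries, 997 reads in place against 1 in silent is a ratio of 780 per unit depth, with a 95% exact counting interval of 140 to 30828. The interval describes the reads of these libraries and is no test of the groups, since Pms1 was chosen for the difference and its place libraries vary. Reads amplified by PCR are not independent molecules, so this interval and the limits above cover counting error only.

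How often other genes had this layout sets the background. Reads in all 5 place libraries and at most 1 read in each silent library were found for 50 of the 15217 tested genes (0.329%), Pms1 among them, and the reverse layout for 1 gene (0.00657%). These counts are not on equal terms. The place layout could pass the filter with 4 of its 5 libraries at 10 or more, while the reverse needed all 4 silent ones. Silent libraries also tended to have more genes without reads. Non-overlapping groups with place higher were found for 195 genes (1.28%), and with place lower for 92 (0.605%). Pms1 passed the filter through its place libraries alone, so on passing it had to differ between the groups. Of the 3521 tested genes with a mean level within 2-fold of Pms1, 46.5% had no reads in silent replicate 1, 17.5% in replicate 2, 27.9% in replicate 3 and 37.2% in replicate 4, while 7.92 to 30.6% had none in a given place library. Of these genes 21 (0.596%) shared the layout of Pms1. Absence from single libraries was common at this level, and the full layout was rare.

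**Figure D1:**
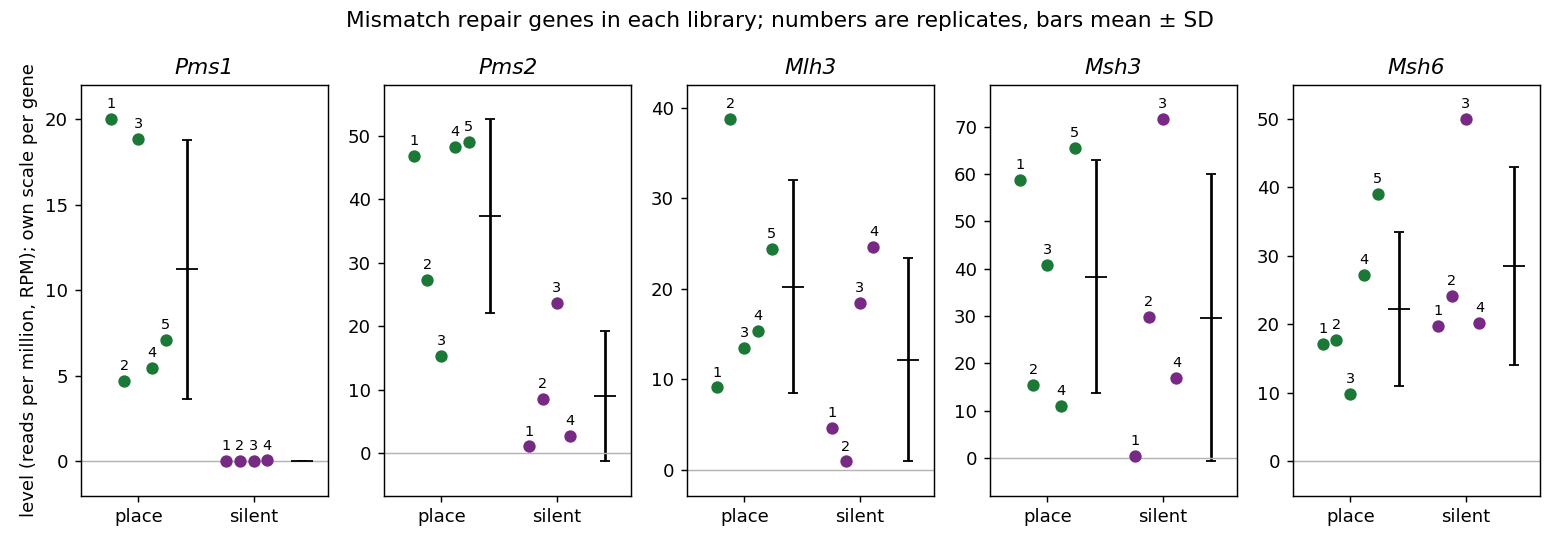
Level of each of the 5 genes (vertical axis, RPM, with its own scale per gene) in the 5 place libraries (green) and the 4 silent libraries (purple); numbers are replicates, and the bar beside each group is its mean ± SD. Pms1 lies at 4.69 RPM or more in place and at 0.0445 RPM or less in silent libraries, while the groups overlap for the other 4 genes.

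Other measures differed between libraries as well. The Y-linked gene Eif2s3y had reads in the 4 silent libraries (349 to 796 RPM) and in place replicate 1 (705 RPM), and none in place replicates 2 to 5. The summed level of 10 oligodendrocyte markers was 1409, 1915 and 3185 RPM in place replicates 1, 2 and 3, 292 and 191 RPM in place replicates 4 and 5, and 119 to 549 RPM in silent libraries. Of the 9 tested markers 9 had higher mean log2 values in place, against 58.5% of all tested genes. At an unadjusted limma p under 0.05, 5 of the 9 were higher in place, against 3.74% of all tested genes, and 0 passed after adjustment. The marker Opalin had the layout of Pms1, with reads in all 5 place libraries and 1 read in silent ones. Astrocyte markers summed to 2306 RPM in place replicate 3 and to 166 to 466 RPM elsewhere. Interneuron markers (26.6 to 207 RPM in place, 67.3 to 196 in silent libraries), microglia markers (5.59 to 174 and 12.1 to 186 RPM) and cycling cell markers (7.36 to 31.9 and 0.0891 to 24.1 RPM) overlapped between groups. Markers without reads numbered 0 to 3 of 10 oligodendrocyte genes in a given place library and 3 to 4 in a given silent one, 0 to 2 and 1 to 4 of 6 astrocyte genes, 0 to 4 and 1 to 5 of 6 microglia genes, 1 to 4 in both groups of 6 interneuron genes, and 0 to 3 and 2 to 4 of 5 cycling cell genes. The part of these measures in the Pms1 difference, or in the differences of the other genes below, was not tested. The fits held no covariate for them. Fewer cells with a transcript and less of it per cell cannot be told apart in such libraries.

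Pms2, whose protein carries the endonuclease, had reads in all 9 libraries. It stood at 46.9, 27.4, 15.3, 48.2 and 49.0 RPM in place replicates 1 to 5, and at 1.09, 8.53, 23.7 and 2.72 RPM in silent replicates 1 to 4. Place replicate 3 and silent replicate 3 are the libraries that overlap: in 19 of 20 pairings of a place with a silent library the place library was higher. The group means were 37.3 ± 15.3 RPM (SD, n = 5) and 9.00 ± 10.3 RPM (SD, n = 4). On the log2(value + 1) scale the difference was 2.78 (95% interval 0.31 to 5.24), and it did not pass the threshold of 0.05 after adjustment over 15217 genes (limma adjusted p = 0.864). As single libraries were left out, the interval spanned 0 in 6 of 9 fits. At an unadjusted p under 0.05, which Pms2 met with all libraries, 3.74% of tested genes were higher and 1.36% lower in place, and 0 genes (0%) passed after adjustment.

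Mlh3 differed little beside its spread. It stood at 9.10, 38.7, 13.4, 15.3 and 24.4 RPM in place replicates 1 to 5, and at 4.64, 0.914, 18.4 and 24.6 RPM in silent replicates 1 to 4. Place replicate 2 was the highest library and silent replicate 2 the lowest. The means were 20.2 ± 11.8 RPM (SD, n = 5) and 12.2 ± 11.2 RPM (SD, n = 4), and the log2 difference was 1.42 (95% interval -1.08 to 3.91, limma adjusted p = 0.864). Without silent replicate 2, where Mlh3 had 18 reads, it was 0.47.

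The 3 MutL genes together made up 43.5 to 68.1% of the 5 genes' summed RPM in place libraries and 14.9 to 42.4% in silent ones. Their sum was 47.6 to 80.5 RPM in place and 5.73 to 42.1 RPM in silent libraries. Both the share and the sum include Pms1, which was chosen for its direction. Without Pms1, Pms2 and Mlh3 made up 36.2 to 66.6% of the other 4 genes' summed RPM in place and 14.9 to 42.4% in silent libraries, and these shares overlapped. The sum of Pms2 and Mlh3 was 28.7 to 73.4 RPM in place and 5.73 to 42.1 RPM in silent libraries, and the groups overlapped. These sums and shares carry no test.

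Msh3, the MutS homolog that recognises larger loops, stood at 58.8, 15.5, 40.9, 11.0 and 65.4 RPM in place replicates 1 to 5, and at 0.507, 29.7, 71.6 and 16.9 RPM in silent replicates 1 to 4. The highest and the lowest library were both silent, replicate 3 with 1179 reads and replicate 1 with 7. The log2 difference was 1.38 (95% interval -1.39 to 4.15, limma adjusted p = 0.864). It rested on silent replicate 1, the library with the fewest reads and the fewest genes detected: without it the difference was -0.11 (95% interval -1.79 to 1.57).

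Msh6, which serves in the recognition of single mismatches, had the smallest SD relative to its mean over all 9 libraries, 49.3%, though within place libraries Pms2 had a smaller one (40.9% against 50.6%). It stood at 17.2, 17.8, 9.80, 27.3 and 39.0 RPM in place replicates 1 to 5, and at 19.8, 24.2, 49.9 and 20.2 RPM in silent replicates 1 to 4. In 6 of 20 pairings of a place with a silent library the place library was higher, and the log2 difference was -0.40 (95% interval -1.82 to 1.02, limma adjusted p = 0.924). Silent replicate 3 held the highest level of both MutS genes. The sum of Msh3 and Msh6 was 60.5 ± 29.6 RPM in place (SD, n = 5) and 58.2 ± 44.4 RPM (SD, n = 4) in silent libraries.

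Levels of different genes were compared per kilobase of merged exons (GENCODE vM21). Over the 9 libraries Msh6 stood at 5.76 ± 2.84 RPM per kilobase (SD, n = 9), Msh3 at 3.06 ± 2.30, Pms2 at 3.05 ± 2.40, Mlh3 at 2.20 ± 1.53 and Pms1 at 0.827 ± 1.06. The order differed between groups. In place libraries Msh6 stood at 5.11 ± 2.59 RPM per kilobase (SD, n = 5), Pms2 at 4.60 ± 1.88, Msh3 at 3.40 ± 2.19, Mlh3 at 2.67 ± 1.56 and Pms1 at 1.49 ± 1.003. In silent libraries Msh6 stood at 6.56 ± 3.32 RPM per kilobase (SD, n = 4), Msh3 at 2.64 ± 2.70, Mlh3 at 1.61 ± 1.49, Pms2 at 1.11 ± 1.27 and Pms1 at 0.00148 ± 0.00295. Each neighbouring pair in the order over all libraries differed by less than the larger of its SDs.

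The spread of each gene between libraries was set against that of other genes of like level. The SD of Pms1 over 9 libraries was 128% of its mean, against a median of 119% for genes within 2-fold of its level. That SD includes the group difference for which Pms1 was chosen, and within place libraries it was 67.4% of the mean. For Pms2 the values were 78.7% and 69.7%, for Mlh3 69.7% and 82.4%, for Msh3 75.1% and 60.1%, and for Msh6 49.3% and 69.4%. Of the genes near Msh6 in level 81.6% were more variable than it, of those near Pms1 41.3%.

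**Figure D2:**
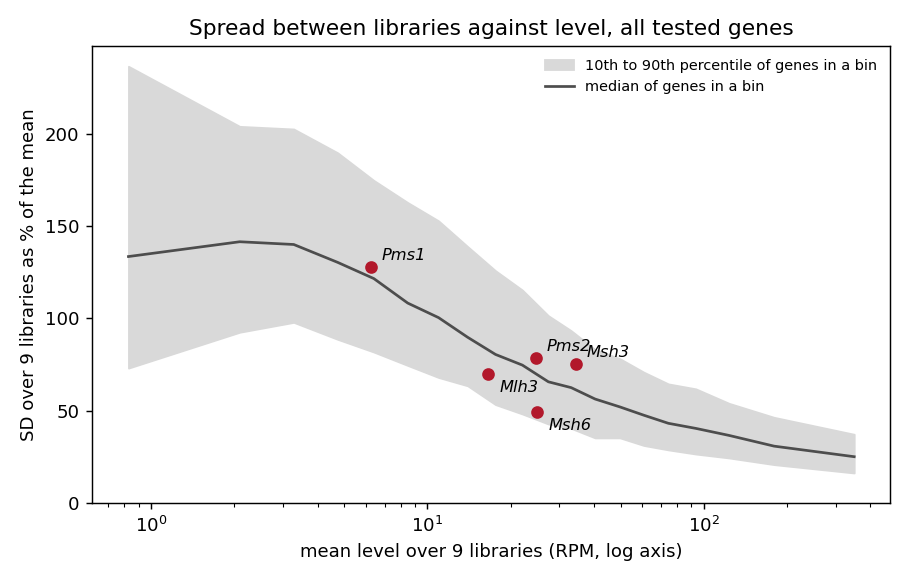
Standard deviation over the 9 libraries as a percentage of the mean (vertical axis) against mean level in RPM (horizontal log axis) for the tested genes in 20 bins of level, with the bin median as a line and the 10th to 90th percentiles shaded. Red points are the 5 genes: Pms1 lies near the median for its level, Pms2 and Msh3 above it, Mlh3 and Msh6 below it, and all 5 within the shaded range. The SD of Pms1 includes the group difference for which it was chosen.

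Pms1 and Pms2 each start close to a gene that is transcribed away from them, so that a short stretch lies between the genes. In RefSeq (build GRCm38.p6) 63 bases separate Pms1, on the minus strand of chromosome 1, from Ormdl1, a regulator of sphingolipid synthesis. For Pms2, on the plus strand of chromosome 5, 61 bases separate it from Aimp2, a scaffold of the complex of aminoacyl-tRNA synthetases. These stretches are shown because both genes of each pair are measured in the same libraries. They are written 5′ to 3′ on the strand of Pms1 (chr1:53297032-53297094) and of Pms2 (chr5:143909840-143909900), with matches to CCAAT on either strand in capitals.
Pms1: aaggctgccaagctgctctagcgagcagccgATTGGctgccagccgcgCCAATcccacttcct
Pms2: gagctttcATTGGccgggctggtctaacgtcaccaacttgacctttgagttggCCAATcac
Each stretch holds 2 CCAAT matches, 1 on each strand. CCAAT or its complement was found in 12.0% of 63-base windows and 11.5% of 61-base windows next to the starts of 27025 genes. GGGCGG, found in 19.7% and 19.2% of those windows, and TTTGGCGC, found in 0.0962% and 0.0851%, had no match in either stretch on either strand. No searched motif contains another. A match is a match of letters and was not measured as a binding site.

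As read here, the neighbours did not follow the repair genes from library to library. Ormdl1 had no reads in place replicates 1 and 3, where Pms1 was highest, and stood at 17.0, 10.6 and 16.9 RPM in place replicates 2, 4 and 5. In silent libraries it stood at 9.08 and 28.5 RPM in replicates 2 and 3, where Pms1 had no reads, and had none in replicates 1 and 4. Aimp2 stood at 12.1, 0.837, 0, 4.44 and 0 RPM in place replicates 1 to 5, and at 0, 12.1, 1.88 and 13.9 RPM in silent replicates 1 to 4. As a description over 9 libraries, which share depth and detection, Pearson's r of log2 values was -0.06 for Pms1 with Ormdl1 and 0.13 for Pms2 with Aimp2. Both neighbours were low, and Ormdl1 had reads in 5 and Aimp2 in 6 of the 9 libraries. Of genes near the level of Pms1, 30.6% had no reads in place replicate 1 and 28.5% in place replicate 3, so such zeros are common. Whether the genes of a pair differ in transcription was not tested.

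**Figure D3:**
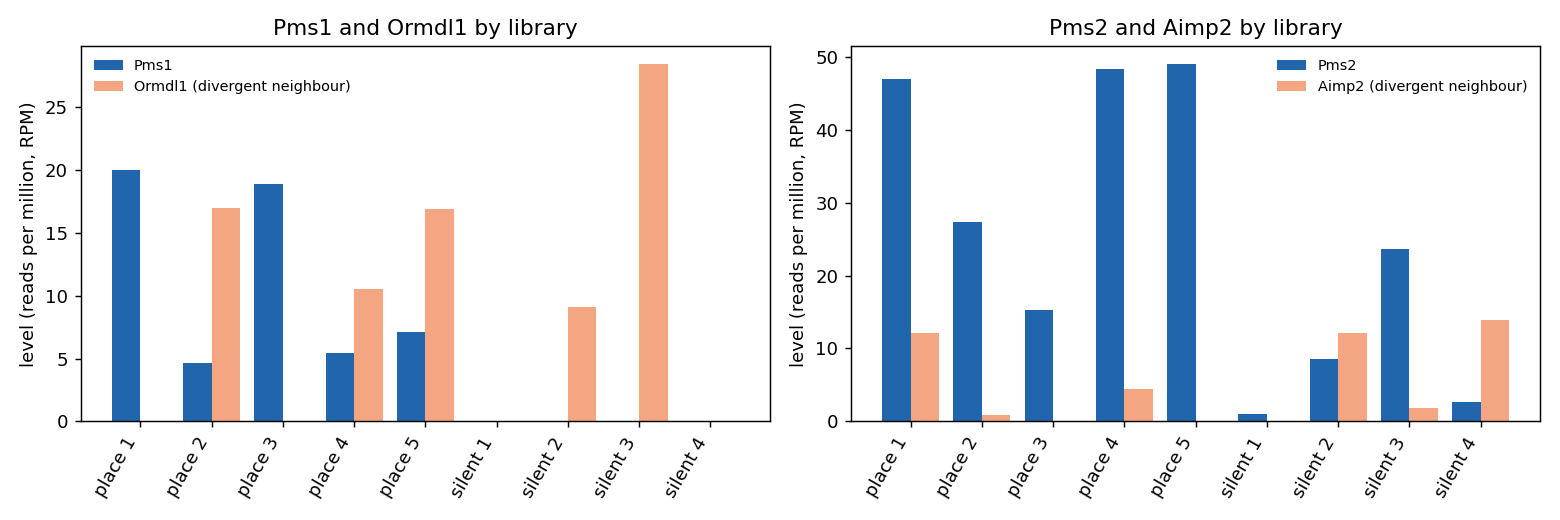
Level (vertical axis, RPM) of Pms1 with its divergent neighbour Ormdl1, and of Pms2 with its divergent neighbour Aimp2, in each of the 9 libraries; blue bars are the repair gene and orange bars the neighbour. The libraries with the most Pms1, place replicates 1 and 3, have no Ormdl1 reads, and silent replicates 2 and 3 have Ormdl1 without Pms1.

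Msh6 overlaps its convergent neighbour Fbxo11, a ubiquitin ligase component, by 34 bases in RefSeq. Whether reads were counted by strand is not given in the sources used here, so reads in that overlap are uncertain. Fbxo11 stood at 265 ± 69.7 RPM (SD, n = 5) and 189 ± 11.0 RPM (SD, n = 4), a log2 difference of 0.45 (limma adjusted p = 0.864). Acyp1, an acylphosphatase gene on the same strand upstream of Mlh3, stood at 8.20 ± 7.31 and 25.7 ± 21.4 RPM. Over the 9 libraries Pearson's r of log2 values, again a description, was -0.14 for Msh6 with Fbxo11 and -0.03 for Mlh3 with Acyp1.

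Among themselves the 5 genes did not move as a block. As a description over the 9 libraries, Pearson's r of log2 values was 0.71 for Pms1 with Pms2 and 0.72 for Pms2 with Msh3. The other 8 pairs lay between -0.40, for Pms1 with Msh6, and 0.44, for Pms1 with Mlh3. Pms1 was chosen for its layout and is almost absent from silent libraries, so each r with it in good part reads that layout. Pms2 and Msh3 were both lowest in silent replicate 1, at 1.09 and 0.507 RPM, and no r was taken without that library. Of the 4 genes other than Pms1, 3 had positive log2 differences, against 58.5% of all tested genes. Reads in all 9 libraries were found for 4 of the 5 genes, against 58.1% of tested genes. Msh4, a meiotic MutS homolog, did not pass the filter and stood at 7.56 RPM in place replicate 3 and 1.12 RPM in place replicate 5, with at most 1 read in each other library.

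The genes whose pattern was most like that of Pms1 were taken by Pearson's r over the 9 libraries from 15212 tested genes. They were Chmp1b, an ESCRT membrane-scission gene (r = 0.99), Spock1, a proteoglycan gene (0.98), Sned1 (0.98), Utp14b (0.96) and Mvb12b, a subunit of the ESCRT-I complex (0.96). Chmp1b, at 3.79 to 49.5 RPM in place, Spock1, at 5.82 to 53.2 RPM, and Utp14b, at 0.746 to 23.1 RPM, had no silent reads. Sned1 ranged from 3.57 to 47.1 RPM in place and had at most 0.0607 RPM in silent libraries. Mvb12b differs from these in having reads in every library, at 16.6 to 26.6 RPM in place and 5.94 to 9.22 RPM in silent libraries, with no overlap. Utp14b lies within Acsl3 on the same strand in GENCODE vM21, so its reads are uncertain. With zeros in the silent libraries such an r mostly reads the layout that chose Pms1. The 2 genes most like Pms2 were Enah (r = 0.96) and Guca1b (0.96), those most like Mlh3 were Nectin3 (0.93) and Rsf1 (0.93), those most like Msh3 were Wdtc1 (0.98) and Arid4a (0.97), and those most like Msh6 were Enoph1 (0.96) and Sf3a1 (0.93).

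Proteins that work after the MutS and MutL complexes were read in both groups with wide spread. The list held 18 genes for the clamp, clamp loader, single-strand binding protein, polymerase delta, ligase and associated factors, of which 17 were tested and 0 passed after adjustment (smallest limma adjusted p = 0.864). Of these 12 had positive and 5 negative log2 differences, with a median of 0.29 beside 0.19 over all tested genes. As single libraries were left out this median ran from -0.07 (without silent replicate 4) to 0.95 (without silent replicate 2). The mean for Pcna, the sliding clamp, was 15.6 ± 11.2 RPM in place libraries (SD, n = 5) and 20.8 ± 9.38 RPM in silent ones (SD, n = 4). Pold4, a small subunit of polymerase delta with the smallest p of the list, stood at 4.52 to 10.8 RPM in all 5 place libraries, and in silent libraries had reads in replicate 2 alone, at 21.7 RPM. Rfc1, the large clamp loader subunit, stood at 32.5 ± 18.2 and 19.1 ± 17.7 RPM. Fan1, a nuclease that binds MutL complexes, stood at 6.53 ± 8.74 and 16.3 ± 13.5 RPM, with no reads in 1 place library. Exo1, the exonuclease that removes the nicked strand, had 1.51 RPM in place replicate 2 and no reads elsewhere, and did not pass the filter.

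Other DNA repair pathways were set beside these. In base excision repair 10 of 16 tested genes had positive and 6 negative differences (median 0.09). That median ran from -0.08 without place replicate 5 to 0.40 without place replicate 1. In nucleotide excision repair 7 of 20 had positive and 13 negative differences (median -0.25), with medians from -0.47 without silent replicate 4 to -0.13 without place replicate 3. In double-strand break repair 12 of 15 were positive and 3 negative (median 1.83), a median that ran from 0.40 without silent replicate 1 to 2.38 without silent replicate 3, and 5 of the 15 had reads in every library. The summed level of this list overlapped between groups, at 336 to 482 RPM in place and 354 to 389 RPM in silent libraries. Of its 17 genes 7 had no reads in silent replicate 1, 7 in silent replicate 4 and 1 to 5 in a given place library. None of the 68 tested genes of the 4 lists passed after adjustment with limma (smallest adjusted p = 0.864). At an unadjusted p under 0.05 there were 2, Pold4 with higher and Ercc4 with lower values in place, beside 3.74% and 1.36% of all tested genes, and voom on the recovered reads called 0 of them. Not 1 of the 68 had non-overlapping groups in either direction, against 1.28% and 0.605% of tested genes, and 0 shared the layout of Pms1, against 0.329%. With shares this low, 0 of 68 genes does not set these lists apart from other tested genes.

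Within these lists, Ercc4, a nuclease subunit of nucleotide excision repair, had means of 12.5 ± 8.73 RPM in place libraries (SD, n = 5) and 38.0 ± 14.8 RPM in silent ones (SD, n = 4; log2 difference -1.76, limma adjusted p = 0.864). Xpa, a damage-verifying protein of the same pathway, stood at 17.3 ± 11.8 and 31.9 ± 9.13 RPM, and Gtf2h3, a TFIIH subunit, at 35.2 ± 16.6 and 66.0 ± 45.0 RPM. Parp2, which marks strand breaks, stood at 117 ± 12.9 and 71.2 ± 68.6 RPM, Apex1, an endonuclease for sites that lack a base, at 9.01 ± 4.40 and 3.57 ± 4.58 RPM, and Tdg, a DNA glycosylase, at 11.2 ± 7.18 and 22.7 ± 16.8 RPM. Trp53bp1, a protein recruited to double-strand breaks, stood at 85.3 ± 27.8 and 51.5 ± 43.4 RPM, the checkpoint kinase gene Atm at 21.6 ± 10.6 and 11.1 ± 11.8 RPM, and the end-processing nuclease gene Dclre1c at 54.3 ± 53.2 and 20.1 ± 19.8 RPM. All 9 of these had overlapping groups.

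**Figure D4:**
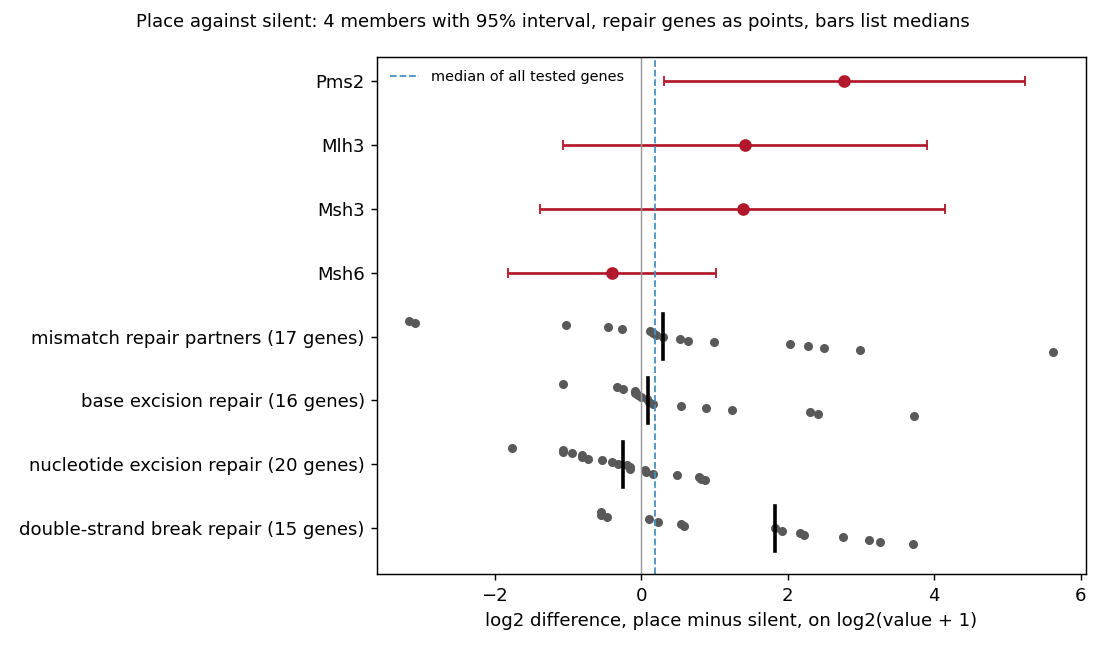
Difference between place and silent libraries on the log2(value + 1) scale (horizontal axis) for Pms2, Mlh3, Msh3 and Msh6 with 95% intervals not adjusted for the number of genes, and for the tested genes of 4 repair lists as points with the list median as a bar. With all 9 libraries the interval of Pms2 lies above 0, though it spans 0 in 6 of 9 fits that leave out 1 library, and those of the other 3 span it. The double-strand break list has its median at 1.83 against 0.19 for all tested genes (dashed line), while its summed RPM overlaps between the groups.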

How the data were processed

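STAR, HTSeq and build GRCm39 are listed in the submitters' processing notes without versions or roles. Which annotation, strand setting and normalization were used is not given in the sources used here. As deposited by the authors, the data are 1 table of normalized counts, a signal with 3 decimals and libraries in rows. Within most genes the values were whole multiples (within 0.05) of 1 number shared by the 9 libraries. For 69.8% of genes directly, and for 3.30% after removing a common divisor, it matched a per-gene factor of the TMM kind (log2 tolerance 0.01). TMM is the trimmed mean of M-values, here with Ezh2 as reference. The match used trims chosen after seeing the data for genes read in 3 or 6 libraries. For 1.72% of genes, Slc17a7 among them, no such number was found, and it was derived from the factor with a wider tolerance. Genes read in 1 library made up 20.7% with whole reads and 1.60% without, and for 2.86% the factor did not match. Dividing by the number gave reads, and for the 5 genes the factor matched. Per read the deposited value was 1.30 for Pms1, 2.04 for Pms2, 2.92 for Mlh3, 3.19 for Msh3 and 3.27 for Msh6.

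Libraries were scaled by a TMM factor across libraries (30% trim of M-values, 5% of A-values), and RPM is reads per 1000000 of that depth. limma 3.58.1 in R 4.3.3 with an intensity trend was run on log2(value + 1) of scaled deposited values, place minus silent, on 15217 genes, with Benjamini-Hochberg adjustment over all of them. A run on simulated reads was a check of the code, and does not show how the fit performs on libraries as sparse as these. The pseudocount shrinks differences between low values, but libraries without reads pull a group's mean log2 value far down. Pold4, as an example, had a log2 difference of 5.63 beside means of 7.98 ± 2.96 RPM in place (SD, n = 5) and 5.43 ± 10.9 RPM in silent libraries (SD, n = 4). Replicates were numbered in accession order. Members and lists were chosen with earlier results of these data known. Named genes are the 5 members, the genes most like them by Pearson's r (5 for Pms1, 2 for each other), their neighbours, Msh4, and the 3 genes of each repair list with the smallest p (none had non-overlapping groups), leaving out predicted gene models. Pcna, Exo1, Slc17a7, Eif2s3y and Opalin were named after their values were seen. Alternatives were other scalings, pseudocounts and filters, voom, recovered reads plus 1, and leaving out each library. Listed genes Msh5, Neil3 and Cdk1 were not analysed here. One result under the naming rule is not reported here. Sequences are from RefSeq tables of build GRCm38.p6, and no coordinate of the deposited data is printed.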

Additional observations from a re-analysis of the deposited data

Results flagged for a closer look

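Msh6 in silent replicate 3, at 49.9 RPM, lay far from the other silent libraries (19.8 to 24.2 RPM): its gap to the nearest of them was 0.855 of the group's range. Of 9 groups looked at (5 genes in place libraries, 4 in silent ones), 1 was so marked, and chance marks about 1 in 20. Without that library the log2 difference of Msh6, place minus silent, was -0.09.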

How the results depend on the processing

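With voom on recovered reads 4 genes passed the threshold over all genes (Spock1, Gm44750, 2700029L08Rik and Hexim2) and with the other settings 0; as single libraries were left out it was 0 to 1, the 1 being Eif2s3y without place replicate 1. None of these is a repair gene. The log2 differences kept their direction and stayed above an adjusted p of 0.05 in all 18 alternatives for Pms2, Mlh3 and Msh6. As libraries were left out they ran from 2.05 to 3.52 for Pms2, 0.47 to 2.04 for Mlh3, -0.64 to -0.09 for Msh6 and -0.11 to 2.25 for Msh3, which reversed without silent replicate 1 (-0.11); in the 9 other settings Msh3 ran from 1.01 to 1.43. The Pms1 level was 9.01 to 12.8 RPM higher in place as libraries were left out and 11.0 to 11.4 RPM higher under other scalings; pseudocounts, filters and tests do not enter that level. No paired analysis was possible because the replicate numbers were given in accession order and the labels pair no libraries. The recovered-reads setting was chosen after seeing the data. By depth and counting error alone, a library without Pms1 reads allows up to 0.152 to 0.217 RPM. Zeros in single libraries were common for genes of like level, and this limit does not cover them.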
